A study of Rattus norvegicus with 16 samples.

Results

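The hairpins of mir-128, mir-129, mir-138 and mir-218 were analysed, 4 microRNA families that each come from 2 loci in the rat genome. They are rno-mir-128-1, rno-mir-128-2, rno-mir-129-1, rno-mir-129-2, rno-mir-138-1, rno-mir-138-2, rno-mir-218-1 and rno-mir-218-2, or 8 of the 392 hairpins with deposited reads, and 16 of the 719 hairpin arms with a read in any library. Members were taken by hairpin name alone, and the reads of each were summed per arm and library. From an adult male rat of each of the strains BN-Lx and SHR, 6 whole organs (brain, kidney, testis, heart, spleen and liver) were sequenced as small RNA on the SOLiD platform, 1 library per organ, which gives 12 libraries. BN-Lx is a Brown Norway inbred strain with the polydactyly-luxate syndrome, SHR is the spontaneously hypertensive inbred rat, and no treatment is given for either. Whole livers of 2 further rats of each strain make 16 libraries. A strain is therefore a single rat in every organ but liver, and the 2 libraries of an organ differ in both strain and animal. Whole organs were ground, so fewer cells of a type and less RNA per cell cannot be told apart.

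A microRNA is cut from the 2 arms of a hairpin, named 5p and 3p. One arm usually persists in the silencing complex and is called here the main arm, and the other, the passenger, is mostly lost. Bases 2 to 8 of the microRNA are the seed, which pairs with target messenger RNAs. All 4 families are known from neurons. mir-128 is known to dampen neuronal excitability, mir-138 to act in dendrites on spine size, mir-218 to mark motor neurons, and mir-129 to act on neuronal channels and synaptic scaling. mir-218 lies in the Slit genes, which code for axon guidance ligands of the Robo receptors.

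The mature sequences of the main arms (for mir-129 that of locus 2) and of the 5p arm of mir-129 were taken from RefSeq (GRCr8). They are given with the seed in capitals, since the 4 families, and both arms of mir-129, have seeds of their own.
miR-128-3p: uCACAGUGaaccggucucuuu
miR-129-5p: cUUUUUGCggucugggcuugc
miR-129-2-3p: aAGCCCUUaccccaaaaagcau
miR-138-5p: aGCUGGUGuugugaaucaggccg
miR-218a-5p: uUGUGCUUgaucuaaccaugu

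On GRCr8 the locus of mir-128-1 is chr13:42251884-42251965 (plus strand), within the span of R3hdm1, and that of mir-128-2 is chr8:120963795-120963878 (minus), within Arpp21 and the lncRNA LOC120094269. The hairpin of mir-129-1 is at chr4:58589711-58589782 (plus), within the lncRNA LOC120102250, and that of mir-129-2 is at chr3:100657390-100657486 (minus), with no spanning gene in the table. The hairpin of mir-138-1 is at chr8:131178434-131178532 (plus), within 2 lncRNAs, and that of mir-138-2 is at chr19:10680133-10680214 (minus), within Slc12a3, which codes for the thiazide-sensitive sodium chloride cotransporter of the kidney. The hairpin of mir-218-1 is at chr14:66922348-66922457 (minus), within Slit2, and that of mir-218-2 is at chr10:20572523-20572632 (plus), within Slit3. The gene table gives spans without strand, exons or introns.

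The main arms of the paired loci are the same up to the last bases. In the following lines each main arm starts at its most frequent 5′ end and the first 3 bases past the stretch common to both loci are in capitals, since only reads that reach them show which locus they match.
mir-128-1-3p: ucacagugaaccggucucuuuUUC
mir-128-2-3p: ucacagugaaccggucucuuuCCC
mir-129-1-3p: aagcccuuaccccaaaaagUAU
mir-129-2-3p: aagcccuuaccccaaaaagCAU
mir-138-1-5p: agcugguguugugaaucaggccgUUG
mir-138-2-5p: agcugguguugugaaucaggccgACG
mir-218-1-5p: uugugcuugaucuaaccaugugCUU
mir-218-2-5p: uugugcuugaucuaaccaugugGUG

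The passenger arms differ inside the read, except in mir-129, whose 5p arm is the same at both loci. The most frequent passenger reads in brain are given with bases that differ between the paired reads in capitals. In mir-218 the capitals at the ends (AAA and CGCG) lie outside the stretch that both reads cover, since the reads start and end at different places. The loci were not compared at those ends. Within the stretch that both reads cover, only the single capital inside differs.
mir-128-1-5p: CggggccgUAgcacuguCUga
mir-128-2-5p: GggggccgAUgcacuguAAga
mir-138-1-3p: gcuaCuucacAacaccagggu
mir-138-2-3p: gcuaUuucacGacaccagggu
mir-218-1-3p: AAAcaugguucCgucaagcac
mir-218-2-3p: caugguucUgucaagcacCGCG

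The libraries of the six-tissue set held 26880 to 1064894 reads on hairpins, the lowest being both testis libraries, and the further livers held 1167607 to 3229461. The limit that a count of 0 allows, 3 reads, is 111.6 and 103.0 reads per 1000000 reads of the library (RPM) in the testis libraries and at most 7.44 RPM in the others, so low arms were not detectable in testis at this depth. Reads over 24 nt made up at most 0.00744% of any library of the six-tissue set and between 0.161% and 0.296% of the further livers. The counts of the 6 organs thus hold almost no lengths above 24 nt, for a reason that is not known. The marker microRNAs of brain (mir-124 and mir-9), liver, heart, testis and spleen with blood cells were highest in both libraries of the organ so labelled. Those of kidney (mir-192 and mir-194) were highest in the livers of the six-tissue set (149728 and 103919 RPM, beside 99384 and 76312 in kidney and 61359 to 81813 in the further livers), and those of red blood cells in the spleens. Summed mir-124 and mir-9 reached 33391 and 71655 RPM in the BN-Lx and SHR brains, 4167 and 1167 RPM in testis, and 24.4 to 297.4 RPM in the other 4 organs.

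The 16 arms together took 13.1% of the BN-Lx brain reads and 13.6% of the SHR brain reads. Their share was 0.997% and 0.765% in kidney, 0.897% and 0.793% in testis, 0.403% and 0.347% in spleen, 0.171% and 0.178% in heart and 0.112% and 0.102% in liver. In both strains brain was thus higher than every other organ, and kidney and testis followed. By reads in brain, with loci summed, mir-128-3p ranked 4 and 5 among 526 and 494 arms with a read, mir-218-5p 8 in both, mir-138-5p 9 and 10, and mir-129-3p 22 and 15.

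**Figure D1:**
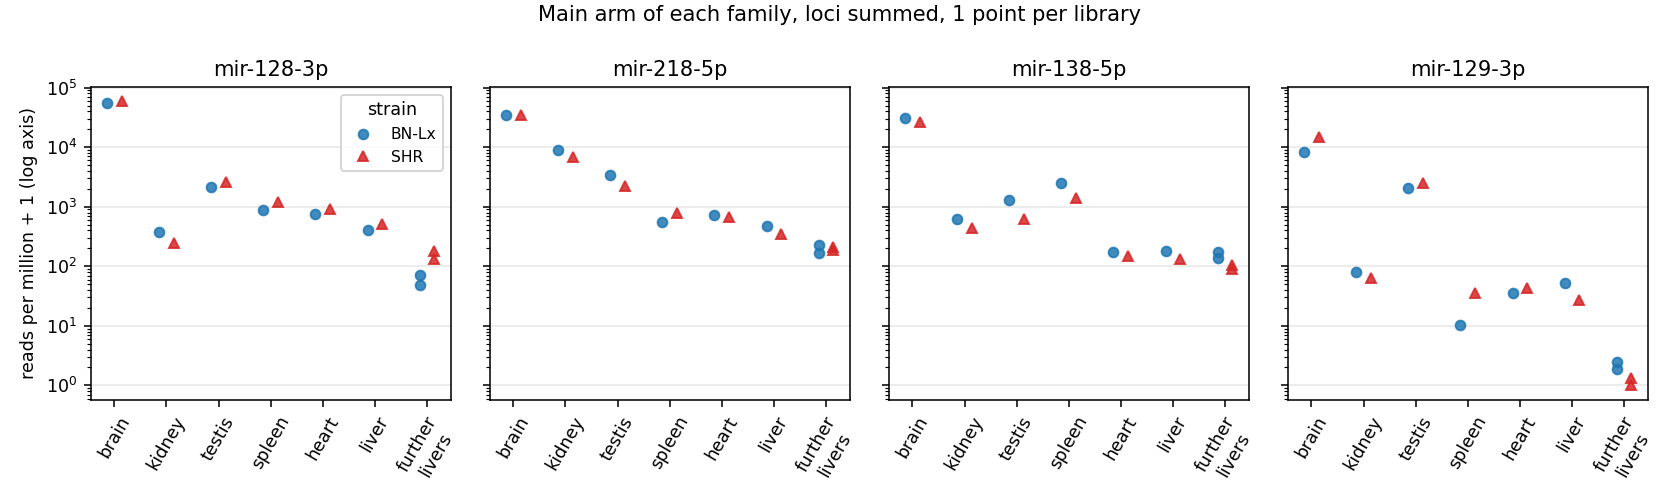
RPM plus 1 (log axis) of the main arm of each family, loci summed, in each of the 16 libraries, with BN-Lx as circles and SHR as triangles. The brain libraries are the highest in all 4 panels, and the next organ is testis for mir-128-3p and mir-129-3p, kidney for mir-218-5p and spleen for mir-138-5p.

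mir-128-3p, the most abundant of the 4, had 60050 reads (56391 RPM) in the BN-Lx brain and 50510 (58701 RPM) in the SHR brain. In the other 5 organs it ran from 242.5 RPM in the SHR kidney to 2575 RPM in the SHR testis, so brain and the other organs did not overlap. Its mean was 57546 ± 1633 RPM in brain (SD, n = 2 libraries), 2348 ± 321 in testis, 1053 ± 238 in spleen, 836 ± 110 in heart, 458 ± 80.0 in liver and 310 ± 94.9 in kidney. Per strain brain was 26.6 and 22.8 times testis and 149.7 and 242.1 times kidney.

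mir-218-5p had 36362 reads (34146 RPM) in the BN-Lx brain and 29981 (34843 RPM) in the SHR brain. Kidney came second with 4834 and 4111 reads, which are 8884 and 6875 RPM, followed by testis with 3460 and 2266 RPM. Heart (694 ± 41.8 RPM, SD, n = 2), spleen (672 ± 176) and liver (413 ± 95.8) lay below these, and heart and spleen differed by less than their spread. Brain was 3.84 and 5.07 times kidney in the 2 strains, the smallest step between brain and the next organ among the 4 main arms in SHR and in BN-Lx.

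mir-138-5p had 32484 reads (30504 RPM) in the BN-Lx brain and 22892 (26604 RPM) in the SHR brain. Spleen came second with 2549 and 1392 RPM, and brain was 11.97 and 19.1 times spleen. Testis (960 ± 484 RPM, from 35 and 18 reads) and kidney (524 ± 127) followed, and their means differed by less than the SD of testis. Within each rat testis was higher, at 1302 beside 614 RPM in BN-Lx and 618 beside 435 RPM in SHR. Heart (162 ± 20.1 RPM, SD, n = 2) and liver (155 ± 30.9) differed by less than their spread.

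mir-129-3p had 9020 reads (8470 RPM) in the BN-Lx brain and 12600 (14643 RPM) in the SHR brain. In testis it had only 56 and 72 reads, but these are 2083 and 2472 RPM, and brain was 4.07 and 5.92 times testis. The other 4 organs ranged from 9.49 RPM in the BN-Lx spleen to 79.0 RPM in the BN-Lx kidney, so both testis libraries stood above them. Between the testes mir-124 and mir-9 were higher in BN-Lx (4167 RPM) than in SHR (1167 RPM), while mir-129-3p was not. The liver microRNA mir-122 was at like levels in both testes, 3423 and 2815 RPM, beside 108.7 to 441.4 RPM in brain, spleen, heart and kidney. Whether RNA of another origin had a part in the testis values was not tested.

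The passenger arms were few. mir-138-3p had 573 and 361 reads in the brains, 24 and 11 in the spleens and at most 5 in each other library of the six-tissue set. mir-128-5p had 126 and 109 reads in the brains and at most 3 elsewhere. mir-129-5p had 655 and 296 reads in the brains, 1 read in each heart and none in the other 8 libraries of the six-tissue set, so brain was at least 96.0-fold higher than liver in BN-Lx and at least 57.5-fold in SHR (against 3 reads per library), but only at least 5.51-fold and 3.34-fold higher than testis. mir-218-3p had 18 and 39 reads in the brains, 4 and 16 in the kidneys, and at most 1 in each other library of that set.

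Brain was compared with the other organs by edgeR's quasi-likelihood test over 459 arms, with organ and strain as terms and the strains as the only replicates. Of the 16 member arms 13 passed the filter on low counts, and all 13 were called higher in brain than in the mean of the other 5 organs, beside 38.8% of all arms tested. The arms pass that filter by their brain libraries, so the count describes the list and is no support for it. The median log2 difference was 5.59 over these 13 arms and 0.44 over all arms. The arms that did not pass were mir-128-1-5p, with 16 and 17 brain reads, mir-218-1-3p, with 3 and 7, and mir-218-2-3p, with 15 and 32. Paralogous arms share reads, so the 2 main arms of a family are not separate measurements.

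By edgeR, log2 differences of brain from the mean of the 5 organs were 5.52 ± 0.27 (SE, adjusted p = 6.2e-09) for mir-128-1-3p and 5.59 ± 0.26 (adjusted p = 6.2e-09) for mir-128-2-3p. For mir-129-2-3p the difference was 6.39 ± 0.37 (adjusted p = 1.9e-08), and for mir-138-1-5p 5.22 ± 0.28 (adjusted p = 1.4e-08). The lowest among main arms was that of mir-218-1-5p, 4.01 ± 0.26 (adjusted p = 3.9e-08), beside 4.10 ± 0.25 for mir-218-2-5p. DESeq2 called 10 of the 13 arms, and mir-128-2-5p (adjusted p = 0.15) and the 2 loci of mir-129-5p (adjusted p = 0.061) were not called. The share of all arms called by DESeq2 is not given, so that count only describes the list.

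Against each organ in turn, 10 of the 13 arms were higher in brain in all 5 edgeR comparisons, beside 17.9% of all arms tested. The 3 others, mir-128-2-5p, mir-129-1-3p and mir-138-2-3p, missed the threshold only against testis, where they had at most 1.5 reads. Against kidney 33.8% of all arms were called higher in brain, and the difference of mir-218-5p was 1.52 ± 0.41 on the log2 scale at locus 1 (SE, edgeR adjusted p = 0.0076) and 1.68 ± 0.41 at locus 2 (adjusted p = 0.0039). Without the SHR brain that of locus 1 was 1.34 (adjusted p = 0.061). Against testis 26.1% were called higher, and mir-129-2-3p was higher by 2.65 ± 0.60 (edgeR adjusted p = 0.0029), but in the fit of all 16 libraries its adjusted p was 0.18. The call of mir-129-5p over testis (adjusted p = 0.018) was lost without either brain or either testis library (adjusted p from 0.070 to 0.16) and by DESeq2 (adjusted p = 0.42).

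**Figure D2:**
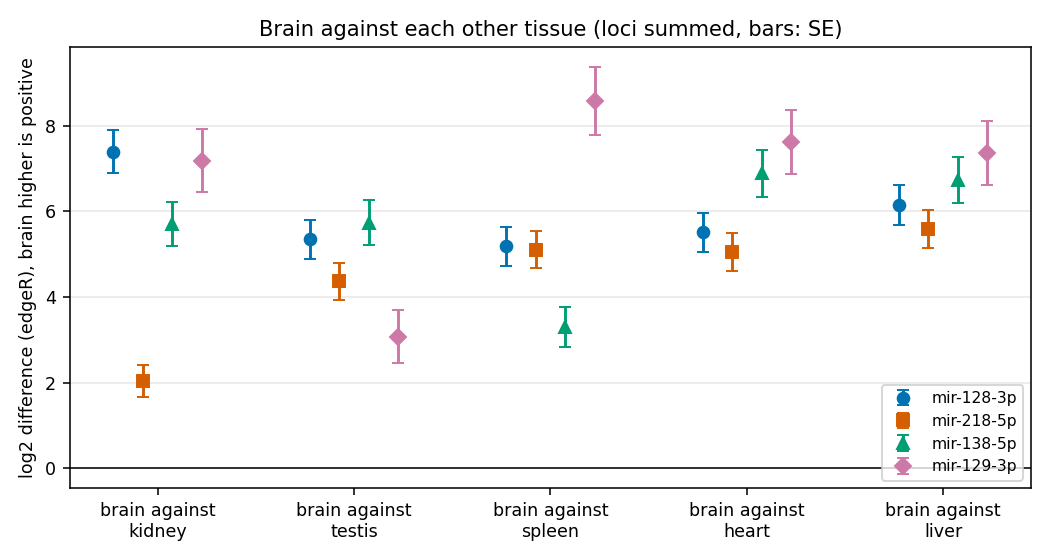
Log2 difference of brain from each other organ by edgeR for the main arm of each family, loci summed, with bars of 1 standard error. All 20 points lie above 0, and the lowest is mir-218-5p against kidney at 2.04, followed by mir-129-3p against testis at 3.08 and mir-138-5p against spleen at 3.30.

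The rule used in the study for organ-specific microRNAs asks for reads, divided by an outlier-corrected mean of the library (ocm), at least 5 times those of every other organ in each strain. It was met in brain by 11 of the 16 arms, beside 19.0% of the 704 arms with a read in the six-tissue set. Of these 11, 7 passenger arms had 0 reads in both testes, and the lower bound that 3 testis reads set on brain over testis (in RPM, loci summed) reached at most 5.51-fold in BN-Lx and 4.07-fold in SHR, so they met the rule against testis by a count of 0. It was missed by mir-129-2-3p, at 3.49 times testis in BN-Lx and 5.47 times in SHR, and by mir-129-1-3p, which in SHR had 1.5 reads in testis. It was also missed by both loci of mir-218-5p, at 3.42 and 3.92 times kidney in BN-Lx and 5.08 and 5.59 times in SHR. mir-218-1-3p had 3 and 7 reads in the brains and 4 and 14 in the kidneys, and so missed it as well.

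Among the 5 organs outside brain, 6 calls of a member arm higher in 1 organ than in the mean of the other 4 were made by edgeR. In kidney these were the 2 loci of mir-218-5p, with log2 differences of 3.10 ± 0.28 and 3.02 ± 0.27 (SE, adjusted p = 7.8e-06 for both), beside 12.4% of all arms called higher in kidney. In spleen they were mir-138-1-5p (2.88 ± 0.31, adjusted p = 2.7e-05), mir-138-2-5p (2.73 ± 0.33, adjusted p = 8.7e-05) and mir-138-1-3p (3.403 ± 0.79, adjusted p = 0.0093), beside 15.3%. Without the BN-Lx spleen the adjusted p of mir-138-1-3p was 0.13. In testis mir-129-2-3p was higher by 4.67 ± 0.40 (adjusted p = 1.6e-06), beside 13.5% of all arms. The testis calls depended on scaling, with 4 member arms called by RLE factors, 7 by the ocm and 8 by total reads, mir-129-2-3p among them in each. Over all 459 arms the number called higher in testis rose as well, from 62 with TMM factors to 84, 119 and 131. In heart and liver 0 member arms were called higher by edgeR with TMM factors or these 3 scalings, beside 11.3% and 8.5% of all arms with TMM factors.

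Lower than in the other 4 organs were both loci of mir-128-3p in kidney, by 1.77 and 1.78 on the log2 scale (edgeR adjusted p = 0.0055 and 0.0042), beside 4.79% of all arms called lower there. Without the SHR kidney those calls were lost (adjusted p = 0.078 and 0.061). mir-129-2-3p was lower in spleen (log2 difference -2.52, edgeR adjusted p = 0.0066), beside 7.19% of all arms, which was not called without the BN-Lx spleen (adjusted p = 0.14). mir-138-5p was lower in heart at both loci (-1.58 and -1.401, edgeR adjusted p = 0.015 and 0.034), beside 5.88% of all arms. Neither call was made without the BN-Lx heart (adjusted p = 0.17 and 0.39) or the SHR heart (0.12 for both), nor that of locus 2 without the SHR liver (0.051). In liver mir-218-5p was lower at both loci (-1.45 and -1.41, edgeR adjusted p = 0.018 for both) and mir-138-5p at locus 2 only (-1.48, adjusted p = 0.034), locus 1 being at -1.18 with an adjusted p of 0.060, beside 5.66% of all arms. These 3 liver calls were lost without the BN-Lx liver (adjusted p from 0.13 to 0.30) or the SHR liver (0.17 for each), and that of mir-138-5p also without the BN-Lx spleen (0.058) or the SHR heart (0.073).

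The loci were told apart by the passenger arm and, as a reading added after the data were seen, by those main-arm reads that match 1 locus only. Such reads made up 4.69% of mir-218-5p, 11.9% of mir-128-3p, 42.3% of mir-138-5p and 97.7% of mir-129-3p in the brains. All intervals given with these shares are exact Clopper-Pearson intervals (95%) and cover counting error only. With 2 libraries per organ an exact permutation test between 2 organs cannot give a p below 0.333, so the shares were not tested.

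The 2 loci of mir-218 changed order between brain and kidney in both readings. In the passenger arm, mir-218-1 had 3 and 7 reads and mir-218-2 15 and 32 in the BN-Lx and SHR brains, while in the kidneys mir-218-1 had 4 and 14 reads and mir-218-2 0 and 2. The share of locus 1 was thus 17.5% in brain (interval 8.75 to 29.9%) and 90% in kidney (68.3 to 98.8%). Of the 15 BN-Lx brain reads of locus 2, 6 overlapped the most frequent read of the arm by less than 10 nt and lay towards the loop. Without those and 1 such SHR read the brain share was 20% (10.03 to 33.7%).

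In main-arm reads that match 1 locus only, mir-218-1 had 558 and 377 reads and mir-218-2 1192 and 984 in the BN-Lx and SHR brains. In the kidneys mir-218-1 had 310 and 214 and mir-218-2 65 and 103. The share of locus 1 was 31.9% and 27.7% in the brains and 82.7% and 67.5% in the kidneys, which did not overlap, also with their counting intervals. Spleen (58.7%), heart (57.7%) and the six-tissue livers (54.8%) lay between brain and kidney, with intervals of 45.6 to 71.0%, 45.4 to 69.4% and 36.0 to 72.7%. The 4 further livers held 45 reads of locus 1 and 75 of locus 2 (37.5%, 28.8 to 46.8%).

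In these main-arm reads the share of mir-218-1 was lower in SHR than in BN-Lx in brain, kidney, spleen (55.6% and 63.0%), heart (51.2% and 67.9%) and the livers of replicate 1 (33.3% and 75%). In the passenger arm the brain share was 16.7% in BN-Lx and 17.9% in SHR, the other way round. The further livers did not follow one order, with 62.5% of 24 reads and 0 of 6 reads in BN-Lx and 35.7% of 56 and 29.4% of 34 reads in SHR. These values were picked out after they were seen, each strain is 1 rat in the first 4 organs, and no test was made. Testis gave 4 such reads for each locus.

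**Figure D3:**
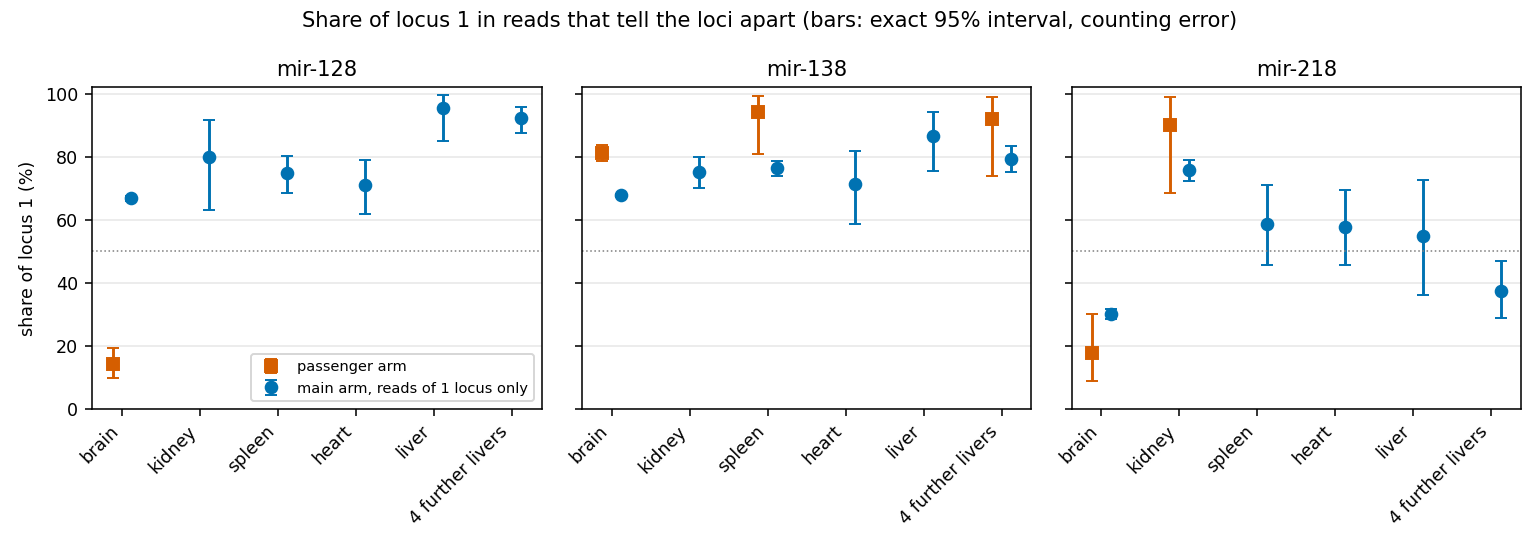
Share of locus 1 (%) among reads that tell the loci apart, by organ with strains summed, from the passenger arm (squares) and from main-arm reads of 1 locus only (circles), with exact 95% intervals and groups under 10 reads left out. For mir-218 brain lies at 17.5% and 30.1% and kidney at 90% and 75.7%, and for mir-128 the readings in brain lie at 14.04% and 66.7%.

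For mir-138 both readings gave locus 1 the larger share in brain. The passenger arm had 463 and 295 reads of mir-138-1 and 110 and 66 of mir-138-2 in the BN-Lx and SHR brains, a share of 81.2% for locus 1 (78.5 to 83.6%). Main-arm reads of 1 locus only gave 67.7% (67.1 to 68.3%). Of these brain reads, the 15846 of locus 1 and 7577 of locus 2 that began at the main start had exactly 1 base past the common stretch, so this share rests on 1 end base, U or A. In spleen, the second organ of this family, the shares were 94.3% (80.8 to 99.3%, 35 reads) and 76.3% (73.9 to 78.6%, 964 reads of locus 1 and 299 of locus 2). In kidney the main-arm share of locus 1 was 75.2% (70.1 to 79.8%).

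For mir-128 the readings went opposite ways. The passenger arm had 16 and 17 reads of mir-128-1 and 110 and 92 of mir-128-2 in the BN-Lx and SHR brains, a share of 14.04% for locus 1 (9.87 to 19.2%). Main-arm reads of 1 locus only numbered 8808 of mir-128-1 and 4389 of mir-128-2, a share of 66.7% (65.9 to 67.5%). Both strains showed the same in each reading, at 12.7% and 15.6% in the passenger arm and 66.5% and 67.0% in the main arm. Outside brain the main-arm share of locus 1 was 76.0% over the 5 organs (71.7 to 79.9%) and 92.3% in the 4 further livers (87.5 to 95.8%).

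The first base past the common stretch is U at locus 1 of mir-128, mir-129 and mir-138, so a read of locus 2 with a U added to its end would match locus 1 without a mismatch. At locus 2 of mir-138 it is A, so a read of locus 1 with an added A would match locus 2. Of the main-arm brain reads of mir-128-1 that began at the main start and passed that stretch, 7940 had 1 base past it, 778 had 2 and 5 had 3 or more, which include the C as the third of these bases. For mir-128-2 the numbers were 4207, 115 and 15. At locus 1 of mir-218 that first base is C, and at locus 2 it is G. The part of added bases in these shares was not tested.

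For mir-129 nearly all 3p reads that tell the loci apart matched mir-129-2. In the brains 49 and 11 reads matched mir-129-1 only and 8749 and 12313 mir-129-2 only, a share of 0.284% for locus 1 (0.217 to 0.365%). In the other 5 organs 0 of 303 such reads matched mir-129-1, which allows a share of up to 1.21%. The 5p arm cannot be assigned to a locus, since its reads were divided evenly, 327.5 reads to each locus in the BN-Lx brain and 148 in the SHR brain.

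The arm that carried most reads was 3p in mir-128 and mir-129 and 5p in mir-138 and mir-218. In brain the 5p arm made up 0.212% of mir-128 reads (0.186 to 0.241%), 98.3% of mir-138 (98.2 to 98.4%) and 99.9% of mir-218. Between the BN-Lx and SHR brains it differed little in mir-128 (0.209% and 0.215%) and mir-138 (98.3% and 98.4%). In mir-129 the 5p share was 6.77% in the BN-Lx brain (6.28 to 7.29%) and 2.30% in the SHR brain (2.04 to 2.57%). These intervals did not overlap, but each is 1 library and 1 rat, so the spread between rats is not known. In testis no 5p read was found beside 56 and 72 3p reads, which allows a 5p share of up to 2.84%.

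Read starts hardly varied, so the seeds of nearly all main-arm reads were those printed in capitals. In brain 99.3% of mir-128-3p, 97.8% of mir-129-3p, 99.9% of mir-138-5p and 99.02% of mir-218-5p reads began at the most frequent position. The largest shifted class was mir-129-3p begun 1 base later, 2.31% in the BN-Lx brain and 1.25% in the SHR brain.

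Lengths varied more, and for 2 families differed between brain and the next organ in both strains. mir-218-5p reads of 21 nt were 83.2% and 83.8% in the BN-Lx and SHR brains and 56.6% and 54.3% in the kidneys, and those of 22 nt were 9.75% and 9.42% in brain and 34.4% and 36.6% in kidney. The 22 nt form ends at the last base common to both loci, so it does not show which locus it came from. mir-129-3p was mostly 22 nt in brain, at 60.2% and 56.8%, and mostly 21 nt in testis, at 78.6% and 65.3%, from 56 and 72 reads. mir-128-3p was mostly 21 nt in every library, from 57.3% in a further BN-Lx liver to 91.2% in the BN-Lx testis.

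mir-138-5p was the longest. In the brains 38.5% and 47.8% of its reads were 24 nt, the longest length that the six-tissue libraries hold in number. In the further livers 3.21% to 8.06% of its reads were longer than 24 nt, so its upper lengths may be cut off in the 6 organs.

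**Figure D4:**
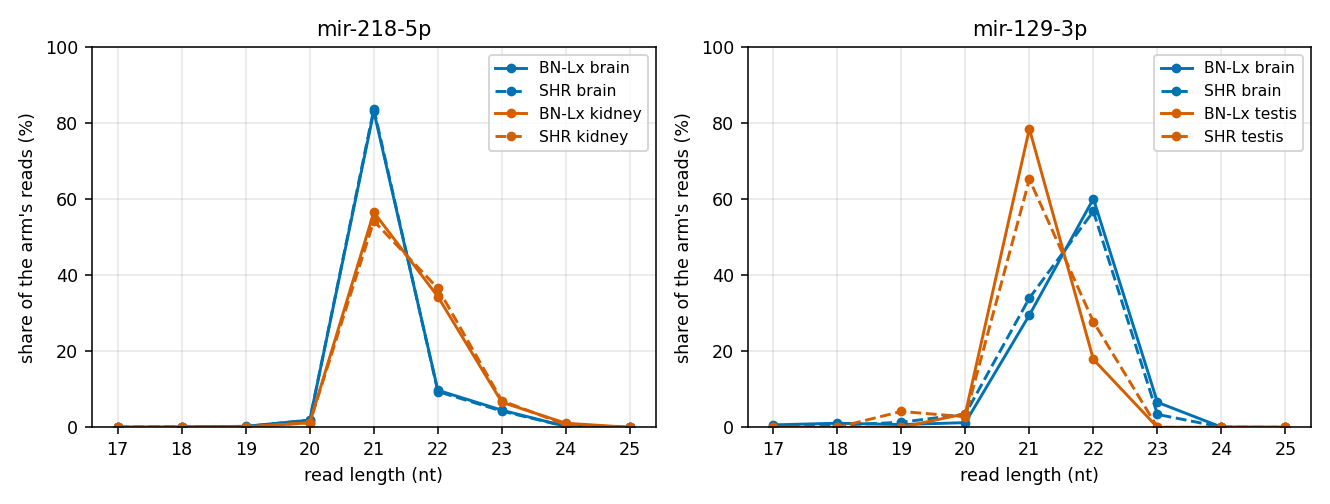
Share of reads (%) by read length (nt) for mir-218-5p in brain and kidney and for mir-129-3p in brain and testis, with BN-Lx as solid and SHR as dashed lines. For mir-218-5p the kidney libraries hold 34.4% and 36.6% of reads at 22 nt against 9.75% and 9.42% in brain, and for mir-129-3p the peak is at 22 nt in brain and 21 nt in testis.

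The strains did not differ in any member arm by the tests made. Over the 6 organs edgeR called 0 of 13 member arms (0.0% of all 459 arms), with 0 member arms and 7 of all arms at an unadjusted p under 0.05. DESeq2 also called 0, with 2 member arms and 20 arms under that p. The smallest unadjusted p of a member by edgeR was that of mir-138-2-5p (SHR minus BN-Lx, -0.58 ± 0.28 on the log2 scale, adjusted p = 0.997). With loci summed mir-138-5p was lower in SHR in 6 of 6 organs, but the 6 organs of a strain come from a single rat and are not replicates of the strain. The same holds for the test over the 6 organs. How many of all arms went one way in 6 of 6 organs was not counted.

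Between 3 livers of each strain edgeR called 0 of the 6 member arms that passed the filter (0.0% of 270 arms), with 0 member arms and 8 arms at an unadjusted p under 0.05. DESeq2 called 0 as well, with 9 arms under that p. mir-128-3p had 401.6, 47.5 and 70.2 RPM in the 3 livers of BN-Lx, and 514.8, 177.3 and 129.4 RPM in those of SHR. The strains overlapped. SHR was higher at each replicate number, but the numbers are not known to pair the rats. mir-138-5p had 177.3, 136.5 and 170.4 RPM in BN-Lx and 133.7, 88.7 and 103.7 in SHR. Each BN-Lx liver was above each SHR liver, but the nearest values, 136.5 and 133.7 RPM, hardly differed. Neither locus was called (edgeR adjusted p = 0.99 for both), and how many of all arms separate the strains in this way was not counted.

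The livers of replicate 1, from the rats of the six-tissue set, stood apart from the further livers, and a comparison of the 2 sets was added after the data were seen. mir-128-3p was higher in the six-tissue livers, with log2 differences of 1.72 ± 0.35 at locus 1 (SE, edgeR adjusted p = 0.020) and 1.91 ± 0.38 at locus 2 (adjusted p = 0.019), beside 9.26% of all arms called higher. Without the SHR liver of replicate 1 the call of locus 1 was lost (adjusted p = 0.055), and without any other liver both were lost (adjusted p from 0.053 to 0.22). mir-129-3p did not pass the filter, having 24 and 13 reads (51.3 and 25.9 RPM) in the six-tissue livers and 2, 1, 1 and 0 reads in the deeper further livers. Summed mir-124 and mir-9 moved in the same direction, with 115.4 and 99.8 RPM in the six-tissue livers and 1.55 to 13.7 RPM in the further ones. mir-138-5p was at 177.3 and 133.7 RPM and 88.7 to 170.4 RPM and was not called. RNA from other libraries of the set, batch and rat were not tested as parts of these differences and cannot be told apart by the design.

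**Figure D5:**
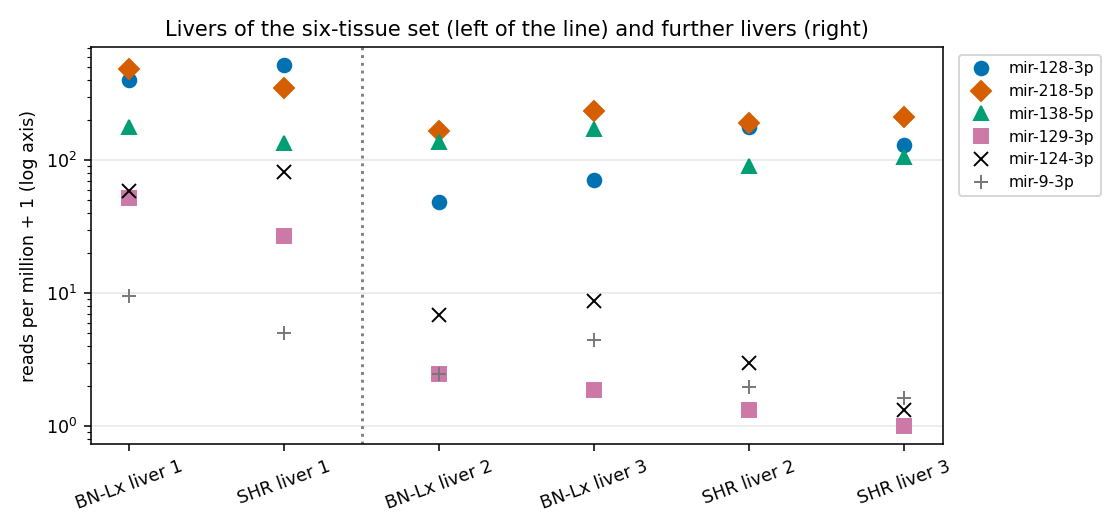
RPM plus 1 (log axis) of the 4 main arms, loci summed, and of mir-124-3p and mir-9-3p in the 6 liver libraries, with those of the six-tissue set left of the dotted line. mir-129-3p lies at 51.3 and 25.9 RPM on the left and at no more than 1.46 RPM on the right, and mir-124-3p at 57.7 and 79.8 RPM on the left and at no more than 7.71 on the right.

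Among 206 other arms with at least 100 reads in each brain, those with the pattern most like each main arm were found by Pearson's r of log2(RPM + 1) over the 12 libraries. These points share libraries, depth and the contrast of brain with the rest, and r is given as a description. Most like mir-128-3p were mir-338-3p (r = 0.97), mir-434-3p (0.97) and mir-329-3p (0.97). Most like mir-129-3p were mir-132-5p (r = 0.96), mir-124-3p (0.96) and mir-323-3p (0.95). mir-218-5p was closest to mir-135a-5p (r = 0.96), mir-9-3p (0.91) and mir-219-3p (0.89), and mir-138-5p to mir-382-5p (0.91), mir-29a-3p (0.90) and mir-132-3p (0.90).

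Of 12 other microRNAs known from neurons or glia, 36 arms had a read in the six-tissue set, 33 were tested and 33 were called higher in brain by edgeR, beside 38.8% of all arms, with a median log2 difference of 6.62 beside 0.44 over all arms. These arms, too, pass the filter by their brain libraries, so the count is a description. The most abundant in brain was mir-124-3p, known to promote neuronal identity, with 22350 and 64233 RPM in the BN-Lx and SHR brains. mir-338-3p followed with 6630 and 6624 RPM and mir-219-3p had 5893 and 5317 RPM, both known from oligodendrocytes, and the activity-induced mir-132-3p was between them at 6560 and 5568 RPM. Each was below mir-128-3p, mir-218-5p and mir-138-5p in both brains, except mir-124-3p, which exceeded all 3 in SHR and none in BN-Lx. These are RPM of small RNAs of similar length, and how efficiently each sequence is captured in a library is not known.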

How the data were processed

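For each of the 16 libraries, the authors deposited estimated counts, not normalized, of the reads that share a start and an end on a hairpin. They trimmed the linker, mapped SOLiD reads with SHRiMP to hairpins from RGSC3.4 and miRBase, kept perfect matches, and divided a read that matches several hairpins evenly between them. The authors amplified the testis libraries and the SHR liver with more PCR cycles than the rest. Counting intervals and limits of 0 cover counting error only, since reads carry no molecular identifiers.

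The position files were summed per arm, split at the middle of the hairpin, and rounded for tests. edgeR 4.0.16 (quasi-likelihood, TMM, filterByExpr, Benjamini-Hochberg at 0.05 over all arms, two-sided) fitted organ and strain on the 12 libraries, and strain on the 6 livers. DESeq2 1.42.0 was the alternative, and the scripts were tested on simulated data. The ocm is the mean over known hairpin arms without the 3 with most reads. Hairpin sequences came from RefSeq (GRCr8), and 361 of 363 read sequences shared by 2 loci had equal reads on both. P-values measure the spread between these samples.

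BN-Lx and SHR livers carry the same replicate numbers in the labels. Deviations from the strain means of same-numbered livers correlated at 0.67, 0.57 and 0.30 over 270 arms. The livers of replicate 1 of both strains belong to the six-tissue set, and differently numbered livers were not compared. These values therefore do not show that the numbers pair the livers.

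The members and lists were chosen with earlier results of these data known. Named are all 16 arms, the 3 arms most like each main arm, and the first 4 of the other brain microRNAs by mean RPM in brain. Alternatives changed the tool, scaling, filter, block, depth, fold, read length or libraries. The piRNA clusters were not used. Python 3.11.15 with pandas 2.3.3, scipy 1.17.1, numpy 2.4.6 and matplotlib 3.10.9 was used beside R 4.3.3.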

Additional observations from a re-analysis of the deposited data

How the results depend on the processing

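With loci summed, 8 of 8 member arms were higher in brain and 5 of 8 met the 5-fold rule, and at the shallowest depth 7 of 7 were higher in brain, where fewer arms were tested. The tested arms pass the filter by their brain libraries here too. Shares of all arms are not given for these settings or with 1 library left out, so the counts only describe the list. Leaving out 1 library gave 13 to 15 arms higher in brain, 7 to 10 higher than in each organ and 5 to 9 calls outside brain, and no call between strains. Calls outside brain numbered 10 by DESeq2, 12 by ocm and 13 by total reads against 6. Of these, 7 by ocm and 8 by total reads were calls in testis. There the number called higher over all arms rose from 62 to 119 by ocm and 131 by total reads. The share of all arms is not given for DESeq2. For the 2 liver sets 0 to 1 arms were called with 1 liver left out, and in 4 of the 6 the arm called was mir-129-2-3p, which passed the filter there.

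Without the strain, which is also the replicate block of the organs, 13 arms were higher in brain, 11 higher than in each organ and 8 calls were made outside brain. Shares of all arms without this term are not given. With the replicate block, edgeR called 0 of 6 member arms between the strains' livers, as it did without the block, at a smallest adjusted p of 0.53 and with 2 members at an unadjusted p under 0.05.

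Another scaling moved the median log2 difference of all arms by 0.37 to 0.73 for brain and 0.36 to 0.96 for testis. The higher share of all calls was 62.7% for brain and 75.2% by total reads, and 47.3% for testis, 64.1% by RLE, 81.0% by ocm and 82.9% by total reads. It moved from 72.2% to as low as 57.9% in kidney, from 68.0% to 55.3% in spleen, from 65.8% to 43.4% in heart and from 60% to 25.7% in liver, and for brain against single organs from between 56.4% and 60.3% to between 53.9% and 76.4%.

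In reads of at least 20 nt the brain passenger share of mir-218-1 was 21.7%, without loop reads 20%, and 99.3% of mir-128-3p reads were at the main start. In the passenger arm with 1 strain alone, the kidney share of mir-218-1 was 100% in BN-Lx, from only 4 reads (interval 39.8 to 100%). In SHR it was 87.5% (61.7 to 98.4%). The main-arm shares of both kidneys, given above, were lower. Of 737 values of single arms under alternatives 52 lost the threshold and none reversed. Depth limits the testis values and every passenger arm outside brain.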

Other observations

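The antisense hairpin of mir-218-1, which lies on the opposite strand of the same locus, had 1 read in the BN-Lx liver of replicate 1 and 1 in the SHR kidney, below the limit of 3 reads that a count of 0 allows.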
